A study of Mus musculus with 11 samples.

Results

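The 10 genes described here belong to the endoplasmic reticulum (ER) stress response and the amino acid response: Atf4, Xbp1, Ddit3, Trib3, Chac1, Asns, Psat1, Phgdh, Hspa5 and Herpud1. They were chosen by name, and every array probe carrying one of these names was taken, which gave 13 of 41121 probes and 10 of the 27567 genes named on the array. The series holds 11 one-colour Agilent whole-genome expression arrays of mouse cells, which measure RNA by the fluorescence of Cy3-labelled copies bound to a probe. The labels give 5 arrays of cardiac progenitors from beta-sarcoglycan null (knockout, KO) mice, 3 arrays of cardiac progenitors from wild-type (WT) mice, and 3 arrays of C2C12, an established mouse myoblast line used as the control for myogenic differentiation. Beta-sarcoglycan belongs to the membrane complex whose loss causes a muscular dystrophy, and the progenitors are mesoangioblasts, vessel-associated cells grown from biopsies of atrium, ventricle and aorta. Per the labels, the wild-type progenitors can form beating cardiomyocytes, whereas those of the null mice form skeletal muscle fibres. No treatment, time point, strain, sex, age or number of animals is given, and the C2C12 arrays carry no genotype label.

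Cells answer 2 kinds of shortage with partly shared genes. Unfolded protein in the ER is sensed by PERK, IRE1 and ATF6. PERK phosphorylates the translation factor eIF2, which favours translation of the transcription factor ATF4; IRE1 splices Xbp1 mRNA into the form that encodes an active transcription factor; and cleaved ATF6, with XBP1, raises chaperones such as Hspa5 and degradation factors such as Herpud1. Lack of amino acids reaches the same eIF2 and ATF4 through the kinase GCN2, without the ER sensors, and ATF4 then raises genes of amino acid synthesis, uptake and tRNA charging. ATF4 and spliced Xbp1 are controlled largely after transcription, so an array probe for either reads the amount of its mRNA and not its activity.

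The promoters of the members were searched for DNA elements of these factors. RefSeq start sites on GRCm38.p6 gave 11 windows for the 10 genes, from 250 bases before to 50 bases after the start, Psat1 having 2. Each window was searched on both strands for the C/EBP-ATF response element bound by ATF4 (TGATGNAA), the ER stress response element (CCAAT and CCACG with 9 bases between them), its second form (ATTGG and CCACG with 1 base between them) and the XBP1-type element (TGACGTGG). These stretches are shown because they hold the matches, which are in capitals; in Chac1, Herpud1 and Trib3 the ATF4 element lies on the opposite strand, so its reverse complement is seen.
Asns: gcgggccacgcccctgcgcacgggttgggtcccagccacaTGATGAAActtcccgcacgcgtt
Trib3: ttagctcaggtTTACATCAgccgggcgggg
Chac1: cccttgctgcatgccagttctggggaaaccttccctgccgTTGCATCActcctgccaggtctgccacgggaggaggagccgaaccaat
Herpud1: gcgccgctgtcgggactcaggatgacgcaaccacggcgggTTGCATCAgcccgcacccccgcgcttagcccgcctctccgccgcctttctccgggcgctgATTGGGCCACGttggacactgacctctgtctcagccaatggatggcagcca
Hspa5: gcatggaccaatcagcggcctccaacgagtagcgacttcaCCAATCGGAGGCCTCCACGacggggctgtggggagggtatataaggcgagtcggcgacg
The stretches lie at chr6:7693210-7693272 (minus strand) for Asns, chr2:152344028-152344057 (minus) for Trib3, chr2:119351009-119351096 (plus) for Chac1, chr8:94386277-94386427 (plus) for Herpud1 and chr2:34771985-34772083 (plus) for Hspa5.

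The ATF4 element was present in the windows of 4 members: its first base lay 23 bases upstream of the start in Asns, 193 in Chac1 and 112 in Herpud1, and at base 15 of the transcript in Trib3. It occurs in 3.97% of all 32851 windows of this length. The first ER stress element was found in Hspa5 alone among the members, 65 bases upstream, against 0.119% of all windows. Its second form was found in Herpud1 alone, 52 bases upstream, against 0.0365%, so Herpud1 carried an element of each arm. The XBP1-type element was in none of the 11 windows and in 0.676% of all. The windows of Atf4, Xbp1, Ddit3, Psat1 and Phgdh held none of these letters, which says nothing of elements elsewhere in those genes.

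The slide layout and the level of the gene named as deleted limit what the group labels can tell. The arrays lay on 3 slides, and no slide held both KO-labelled and WT-labelled arrays: slides 1 and 3 held the KO arrays, slide 2 the WT arrays, and each slide held 1 C2C12 array. The KO ventricle, KO aorta and C2C12 arrays of slides 1 and 3 formed pairs that differed by less than the spot noise (ratio 0.589 to 0.705 over 8438 bright probes), and each pair was counted as 1 sample, which left 3 KO, 3 WT and 2 C2C12 samples. Nothing says that samples of a group came from separate animals, so p-values measure only the spread between these samples. Sgcb, the gene named as deleted (probe at chr5:73914512-73914571, mm8), was not lower in the KO-labelled samples: its level was 2.99, 2.34 and 2.64 there and 2.07, 2.2 and 1.82 in the WT-labelled ones (difference +0.63, SE 0.21, limma adjusted p = 0.071). A second Sgcb probe was not lower there either (difference +0.41, SE 0.26, limma adjusted p = 0.289). Whether the probes lie in the deleted part is not stated, so the groups are called KO-labelled and WT-labelled. Whether labels were exchanged was not tested, and every direction between KO and WT below would turn if they were. Across 15807 genes the KO-labelled samples correlated with C2C12 at 0.966 to 0.974 and with the WT-labelled samples at 0.853 to 0.882.

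Marker genes were summed as signals relative to each array's 75th percentile. The 8 skeletal muscle markers summed to 41.3 to 169 in KO-labelled samples, 94.3 to 242 in C2C12 and 0.537 to 2.64 in WT-labelled samples. The 8 heart markers summed to 0.756 to 1.52 in KO-labelled, 0.35 to 0.563 in WT-labelled and 0.541 to 0.683 in C2C12 samples, with Tbx5 and Kit not above background on any array. Their members did not move together. Nkx2-5, the largest part of the KO-labelled sums, was at -1.38 to -0.35 there and -5.86 to -5.48 in WT-labelled samples. Mef2c, the largest part of the WT-labelled sums, was higher there, at -2.18 to -1.19 against -2.88 to -2.33. Of the 6 pericyte and mesoangioblast markers, Alpl and Abcc9 were above background on no array, and the sums were 18.6 to 24.8, 8.04 to 10.8 and 44 to 45.3 in KO-labelled, WT-labelled and C2C12 samples. Fibroblast markers (5 genes, Tcf21 not above background) summed to 72.8 to 76, 78.8 to 136 and 76.2 to 80.6 in the same order. Col1a1, at a level of 5.21 to 6.27 throughout, makes up most of these sums, while Thy1 was at -7.21 to -4.88 in KO-labelled and 4.72 to 6.06 in WT-labelled samples and Pdgfra at -2.7 to -1.2 and 1.82 to 2.42. Endothelial markers (5 genes, with Pecam1, Cdh5 and Kdr not above background) summed to 0.0392 to 0.0588 in KO-labelled, 0.108 to 0.237 in WT-labelled and 0.0383 to 0.0507 in C2C12 samples. Erg, well above background on 3 arrays, was at -3.98 to -2.32 in WT-labelled and -7.7 to -6.81 in KO-labelled samples. Blood markers (5 genes, with Ptprc and Adgre1 not above background) stayed at or below 0.179 in KO-labelled and C2C12 samples against 1.15 to 2.18 in WT-labelled ones. Lyz2, at -0.03 to 1.0 in WT-labelled and -6.85 to -5.79 in KO-labelled samples, makes up most of the WT-labelled blood sums. In the same order C1qb was at -3.29 to -3.15 and -4.01 to -3.66, and Cd68 at -4.55 to -3.94 and -4.53 to -3.8. The part of these differences in the results below was not tested, and in such bulk samples fewer cells of a type and less RNA per cell cannot be told apart.

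All 13 member probes were well above background on all 11 arrays, at processed signals from 1330 to 109000, with no saturated spot. Levels are given as the log2 of the processed signal minus that of the array's 75th percentile probe, so that 0 is the 75th percentile and 1 unit is a doubling. Probe signals depend on the probe, so levels are compared between samples and not between genes. Repeat arrays of the KO ventricle, KO aorta and C2C12 samples differed by at most 0.14, 0.11 and 0.07 for any member.

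**Figure D1:**
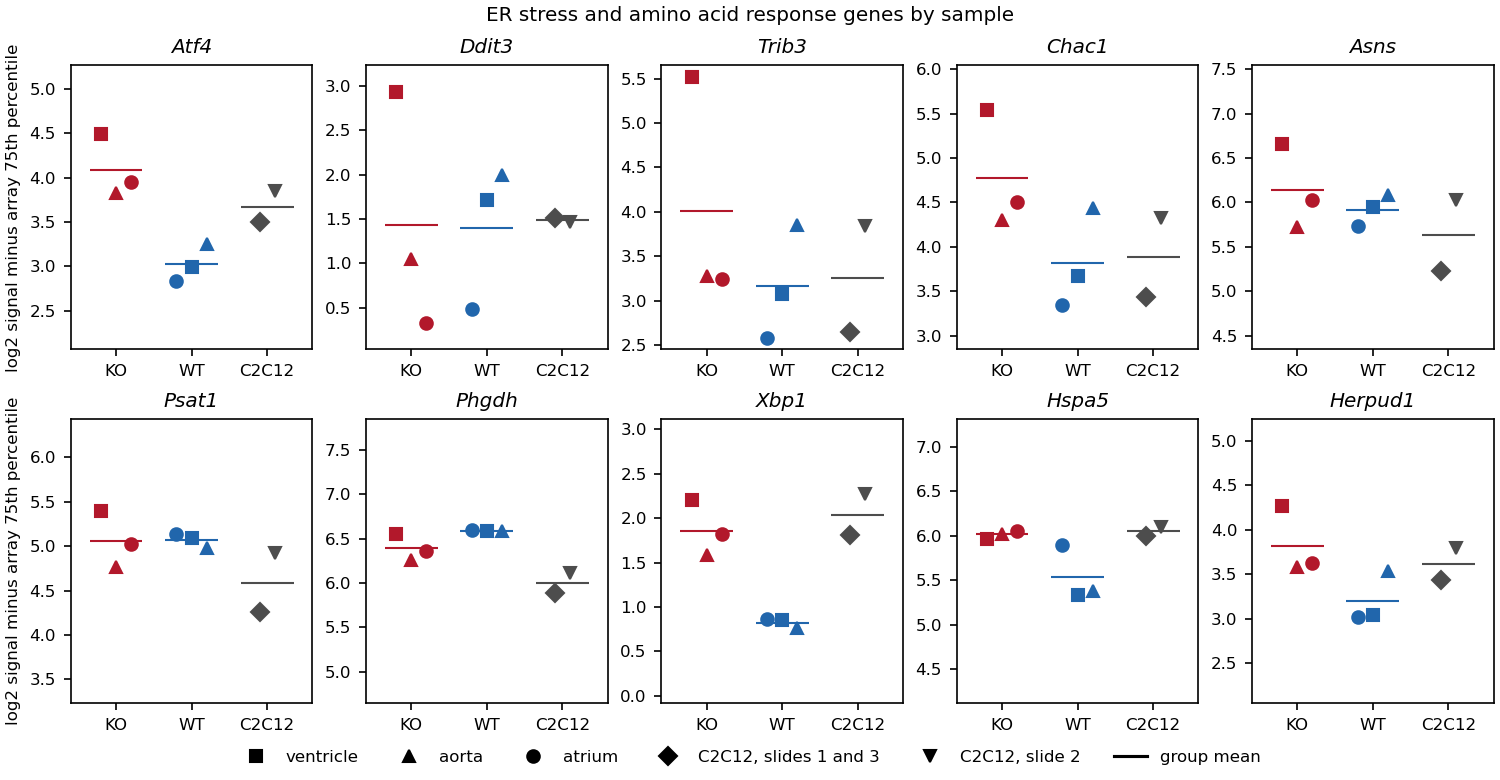
Level of each member (log2 signal minus the array's 75th percentile, each panel spanning the same height) in the 3 KO-labelled, 3 WT-labelled and 2 C2C12 samples; shapes give the heart region or slide and lines the group mean. The KO ventricle (square) is the highest KO-labelled sample for 9 of the 10 genes, Hspa5 being the exception, and Xbp1 and Atf4 are lower in all WT-labelled than in all KO-labelled samples.

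The transcription factors come first. Atf4, the factor both responses converge on (probe at chr15:80083904-80083963, mm8), was at 4.49, 3.83 and 3.95 in the KO-labelled ventricle, aorta and atrium, and at 2.84, 2.99 and 3.25 in the WT-labelled atrium, ventricle and aorta. Every KO-labelled sample was above every WT-labelled one, and the C2C12 samples, at 3.5 on slides 1 and 3 and 3.85 on slide 2, lay between the group means of 4.09 ± 0.35 (SD, n = 3) and 3.03 ± 0.21 (SD, n = 3). Atf4 was thus 2.09-fold higher in the KO-labelled cells (difference 1.07, SE 0.22, limma adjusted p = 0.0163). With the slide as a block, which compares each group with the C2C12 arrays of its own slides, the difference was 1.42 and the adjusted p 0.145, and without the WT ventricle sample it was 1.05 with an adjusted p of 0.0559.

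Xbp1, which encodes the factor that IRE1 activates by splicing (chr11:5424970-5425029, mm8), had levels of 2.2, 1.58 and 1.82 in KO ventricle, aorta and atrium. The WT-labelled atrium, ventricle and aorta were at 0.86, 0.85 and 0.76, and C2C12 at 1.81 and 2.27. The WT-labelled samples were low and close together, and both other groups lay above all of them. Xbp1 was 2.06-fold higher in KO-labelled than WT-labelled samples (difference 1.04, SE 0.19, limma adjusted p = 0.00961; 1.5 and 0.0833 with the slide as a block). Whether the probe separates spliced from unspliced Xbp1 is not stated in the files.

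Ddit3 encodes CHOP, a transcription factor raised by ATF4 under prolonged stress (chr10:126698411-126698714, mm8, an interval longer than the probe). It was at 2.93, 1.05 and 0.33 in KO ventricle, aorta and atrium and at 0.49, 1.71 and 1.99 in WT atrium, ventricle and aorta. C2C12 was at 1.51 and 1.47. The groups overlapped throughout: the highest and the lowest of all 8 values were both KO-labelled, and the difference between KO and WT was 0.04 with an SE of 0.74 (limma adjusted p = 0.974). Ddit3 had the widest spread within a group of any member, 2.6 within the KO-labelled samples.

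Among targets of ATF4, Trib3, a pseudokinase that binds ATF4 and CHOP and restrains them (chr2:152029060-152029119, mm8), was at 5.52 in KO ventricle but at 3.28 and 3.24 in KO aorta and atrium. In WT atrium, ventricle and aorta it was at 2.58, 3.08 and 3.85, and in C2C12 at 2.65 and 3.84. One KO-labelled sample stood far above, and the other two lay inside the WT-labelled range. The second Trib3 probe (chr2:152029730-152029789) gave the same picture at a lower level, 3.74, 1.32 and 1.18 against 0.29, 0.87 and 1.74. The difference of 0.84 between KO and WT had an SE of 0.69 (limma adjusted p = 0.406).

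Chac1, which degrades glutathione and is raised by ATF4 (chr2:119045695-119045754, mm8), was at 5.54, 4.3 and 4.51 in KO ventricle, aorta and atrium. It was at 3.35, 3.67 and 4.44 in the WT-labelled atrium, ventricle and aorta, and at 3.44 and 4.33 in C2C12. The groups overlapped by WT aorta alone, and the difference of 0.97 had an SE of 0.42 (limma adjusted p = 0.138). Asns, asparagine synthetase (chr6:7625194-7625253, mm8), was at 6.66, 5.72 and 6.03, at 5.73, 5.95 and 6.08, and at 5.23 and 6.03 in the same order of samples. KO aorta lay below and KO ventricle above all WT-labelled samples, and the difference was 0.21 (SE 0.27, limma adjusted p = 0.591).

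Phgdh and Psat1 catalyse the first and second steps of serine synthesis. Psat1 (chr19:15972499-15972558, mm8) was at 5.4, 4.76 and 5.02 in KO ventricle, aorta and atrium, at 5.14, 5.09 and 4.98 in the WT-labelled atrium, ventricle and aorta, and at 4.26 and 4.92 in C2C12. Its group means, 5.06 ± 0.32 and 5.07 ± 0.08 (SD, n = 3 each), differed by -0.01 (SE 0.19, limma adjusted p = 0.967). Phgdh (chr3:98398580-98398639, mm8) was at 6.55, 6.26 and 6.36, at 6.6, 6.58 and 6.58, and at 5.89 and 6.11. By this probe the WT-labelled samples lay just above the KO-labelled ones, while by the other 2 Phgdh probes the groups overlapped; the difference was -0.2 (SE 0.14, limma adjusted p = 0.324).

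Hspa5 encodes BiP, the main chaperone of the ER lumen (chr2:34598119-34598178, mm8). It was at 5.96, 6.02 and 6.06 in KO ventricle, aorta and atrium, at 5.9, 5.33 and 5.38 in the WT-labelled atrium, ventricle and aorta, and at 6.0 and 6.1 in C2C12. KO-labelled and C2C12 samples were nearly level, and in the WT-labelled group the atrium stood close to them and apart from the other two. The difference of 0.48 (SE 0.19) had a limma adjusted p of 0.106; without WT atrium it was 0.66 with an adjusted p of 0.00815.

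Herpud1, an ER membrane protein of the degradation machinery (chr8:97284346-97284405, mm8), was at 4.27, 3.58 and 3.62 in KO ventricle, aorta and atrium. It was at 3.02, 3.04 and 3.53 in the WT-labelled atrium, ventricle and aorta and at 3.43 and 3.79 in C2C12. The groups did not overlap, but only by the small step from WT aorta to KO aorta, and KO ventricle stood above all other samples. The difference of 0.63 (SE 0.26) had a limma adjusted p of 0.117.

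**Figure D2:**
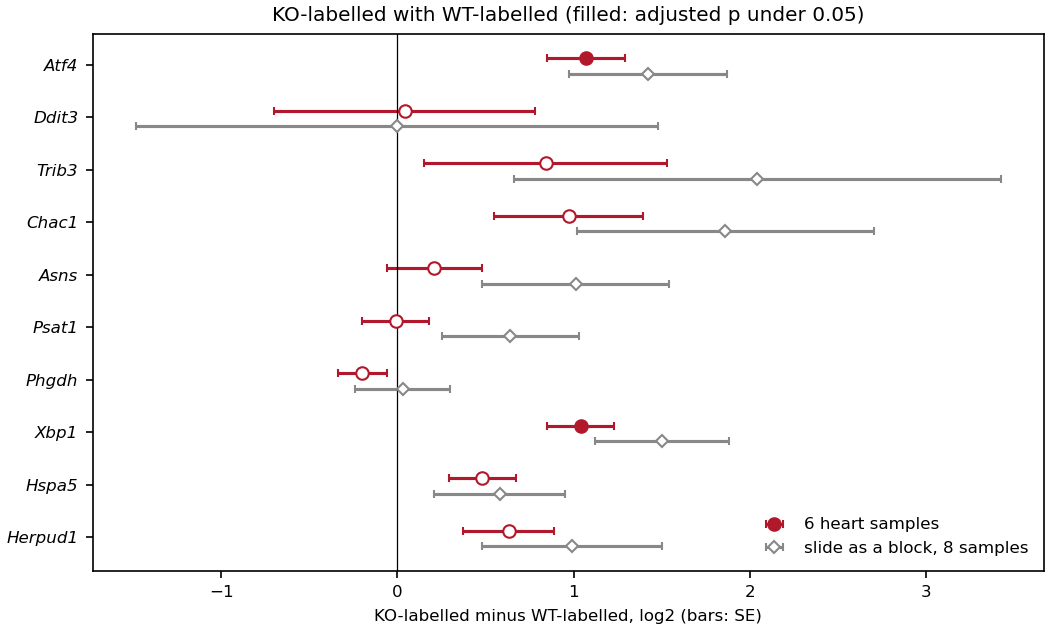
Difference between KO-labelled and WT-labelled samples for each member on the log2 scale, with its SE, from the 6 heart samples (circles) and from all 8 samples with the slide as a block (diamonds); filled points have an adjusted p under 0.05. Atf4 and Xbp1 are filled at 1.07 and 1.04, and no member is filled with the slide as a block.

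The comparison of KO-labelled with WT-labelled cells is the one the series design names. Over the 10 members, 2 were called at a limma adjusted p under 0.05, both higher in KO-labelled cells, while 29.7% of the 15002 genes tested were called (13.7% higher, 16.1% lower). Of the members 2 of 10 were thus called, a share near the background. Values did not overlap between the groups for 5 members, Atf4, Xbp1, Herpud1 and Hspa5 being higher and Phgdh lower, against 49.2% of all genes. The members' median difference was 0.55, and that of all genes -0.06; the members' median was 0.25 without KO ventricle and 1.0 with the slide as a block. With the slide as a block 0 members and 913 genes were called (2 members and 3076 genes at an unadjusted p under 0.05), and only the C2C12 arrays link the slides. The members' differences were then -0.0018 for Ddit3, 0.03 for Phgdh, 0.58 for Hspa5, 0.64 for Psat1, 0.99 for Herpud1, 1.01 for Asns, 1.42 for Atf4, 1.5 for Xbp1, 1.86 for Chac1 and 2.04 for Trib3.

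KO-labelled cells were next compared with C2C12. No member was called between KO-labelled cells and C2C12 (limma, all 8 samples; 1.25% of 15807 genes called), and 1, Phgdh, had an unadjusted p under 0.05 (difference 0.39, SE 0.15, adjusted p = 0.341). The widest differences were 0.9 (SE 0.49) for Chac1 and 0.77 (SE 0.77) for Trib3, and Atf4 stood 0.42 (SE 0.25) above C2C12. Phgdh alone had values that did not overlap, 1 of 10 members against 37.9% of all genes.

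WT-labelled cells and C2C12 share those same C2C12 samples. Xbp1 was lower in the WT-labelled cells by -1.22 (SE 0.22, limma adjusted p = 0.0074) and Phgdh higher by 0.59 (SE 0.15, adjusted p = 0.0257), which makes 2 of 10 members against 27% of all genes called. The other Phgdh probes gave 0.68 and 0.71. Atf4 (-0.65, SE 0.25, adjusted p = 0.0959) and Hspa5 (-0.51, SE 0.19, adjusted p = 0.0951) did not pass. Values did not overlap for 5 members, Atf4, Xbp1 and Hspa5 being lower and Phgdh and Psat1 higher, against 54.1% of all genes. The Xbp1 call held with the slide as a block (-1.45, adjusted p = 0.0196) and ended without the C2C12 sample of slide 2 (-0.99, adjusted p = 0.061). The Phgdh call ended with the slide as a block (0.48, adjusted p = 0.168) and also without WT ventricle, WT aorta, KO atrium or either C2C12 sample (adjusted p 0.0507 to 0.163).

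Within slides, each group can be set against the C2C12 sample hybridised beside it. Atf4 in KO-labelled samples lay 0.59 ± 0.35 (SD, n = 3) above the C2C12 of slides 1 and 3, and in WT-labelled samples -0.82 ± 0.21 (SD, n = 3) from that of slide 2, so all 3 KO-labelled samples were above and all 3 WT-labelled samples below their own C2C12. Herpud1 did the same, at 0.39 ± 0.39 and -0.6 ± 0.29. Xbp1 differed from this, with KO-labelled samples level with C2C12 (0.05 ± 0.32) and WT-labelled ones below it (-1.45 ± 0.05). For Phgdh both groups lay above it by a like amount, 0.5 ± 0.15 and 0.48 ± 0.01. The 2 C2C12 samples themselves differed: 9 of 10 members were higher on slide 2 (53.6% of all genes), Trib3 by 1.19, Chac1 by 0.89 and Asns by 0.8, and the blocked differences are taken against these 2 samples.

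Heart region gave no call. With the genotype label as a term, limma called 0% of 15002 genes for ventricle against aorta, 0% for atrium against aorta and 0% for atrium against ventricle, with 440, 675 and 1148 genes at an unadjusted p under 0.05. Of the members only Ddit3 reached that, in atrium against ventricle (-1.91, SE 0.56, adjusted p = 0.56). Each region held 1 KO-labelled and 1 WT-labelled sample and kept its own position on the slide, so region and position cannot be told apart.

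Among the KO-labelled samples the ventricle stood apart for most members. What follows describes that sample, which has no replicate of its own beyond its repeat array, and gives no test. Set against the mean of KO aorta and KO atrium, KO ventricle was 4.78-fold higher for Trib3 (2.26 on the log2 scale), 4.73-fold for Ddit3 (2.24), 2.19-fold for Chac1 (1.13), 1.72-fold for Asns (0.79), 1.59-fold for Herpud1 (0.67), 1.52-fold for Atf4 (0.6) and 1.42-fold for Psat1 and Xbp1. Phgdh was at 1.19-fold and Hspa5 at 0.947-fold. KO ventricle lay above both other KO-labelled samples for 9 of 10 members (33.4% of all genes) and at least 2-fold above their mean for 3 (2.95% of all genes). It held the highest level of all 8 samples for 7 members, Atf4, Ddit3, Asns, Trib3, Chac1, Psat1 and Herpud1.

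The values on slide 3 alone, where all 3 KO-labelled regions were hybridised together, were 2.25 for Trib3, 2.2 for Ddit3, 1.11 for Chac1, 0.62 for Atf4 and -0.07 for Hspa5. The differences were thus present among arrays of 1 slide. That they were as large as above adds nothing further. KO atrium was on slide 3 alone, and the repeat arrays of KO ventricle and KO aorta differed by at most 0.14 and 0.11. Skeletal muscle markers moved with it: their sum was 169 in KO ventricle against 91.1 in the atrium and 41.3 in the aorta, and all 7 that passed the filter were above both other samples, by a median of 1.1. Heart markers summed to 1.52 against 0.756 and 0.77 in atrium and aorta, and proliferation markers to 85.3 against 114 and 111. Pcna, the largest part of the proliferation sums, was at 5.21 against 5.8 and 5.9. Of the 6 proliferation markers, 4 were below both other samples. Mki67 (4.36 against 4.44 and 4.2) and Top2a (1.73 against 1.8 and 1.55) lay between them. In the 2 C2C12 samples muscle markers summed to 242 on slides 1 and 3 and to 94.3 on slide 2. On slide 2, 9 of 10 members were higher (53.6% of all genes), Trib3 by 1.19, Chac1 by 0.89 and Asns by 0.8, while Ddit3 was level (-0.04). The part of muscle marker levels in the KO ventricle values was not tested.

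The wider pathway showed the same division within the KO-labelled group. Of all genes, 33.4% were higher in KO ventricle than in both other samples. Among 15 partners and co-regulated genes of ATF4, all 15 were, with a median of 0.97 against -0.04 for all genes. Amino acid transporters were above in 8 of 9 (median 1.01), serine, glycine, proline and one-carbon enzymes in 8 of 10 (median 0.7), and aminoacyl-tRNA synthetases in 11 of 12 (median 0.64). ER chaperones and folding enzymes went the other way: 13 of 16 were below both other samples (43.9% of all genes) and 2 above, with a median of -0.42. Sensors and eIF2 kinases (median -0.11, 4 of 10 above) and degradation factors (-0.04, 4 of 11 above) stood near all genes.

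Single genes of these lists, picked after their values were seen, show the sizes. The secreted hormone Fgf21 was at 3.47 in KO ventricle against -1.0 and 0.42 in KO aorta and atrium. Atf3, a stress transcription factor, was at 1.43 against -1.07 and -0.51, and Ppp1r15a, the eIF2 phosphatase subunit GADD34, at 2.46 against 0.27 and 0.28. These 3 come from the list of ATF4 partners and stress regulators, in which Ppp1r15b (0.1) and Cebpb (0.37) rose least in KO ventricle. Activity of eIF2 or ATF4 was not measured. The cationic amino acid transporter Slc7a3 was at -0.01 against -3.18 and -3.33, the cystine transporter Slc7a11 at -0.66 against -2.44 and -2.2, and Cth, which makes cysteine, at 4.23 against 2.27 and 2.61. On the chaperone side, Sdf2l1 was at 1.42 against 2.73 and 2.36, Creld2 at 4.61 against 5.85 and 5.52, and calreticulin (Calr) at 4.19 against 4.81 and 4.8. The exceptions among the folding genes were the oxidase Ero1a, at 2.38 against 1.57 and 1.11, and the co-chaperone Dnajb9, at -0.02 against -0.75 and -0.68. Those among the amino acid lists were the transporter Slc38a2, at 5.0 against 5.24 and 5.18, and the enzymes Shmt1, at -0.31 against 0.05 and 0.09, and Mthfd1, at 3.04 against 3.42 and 3.71. The synthetase gene Tars, at 5.85 against 5.64 and 5.87, lay between the other samples.

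**Figure D3:**
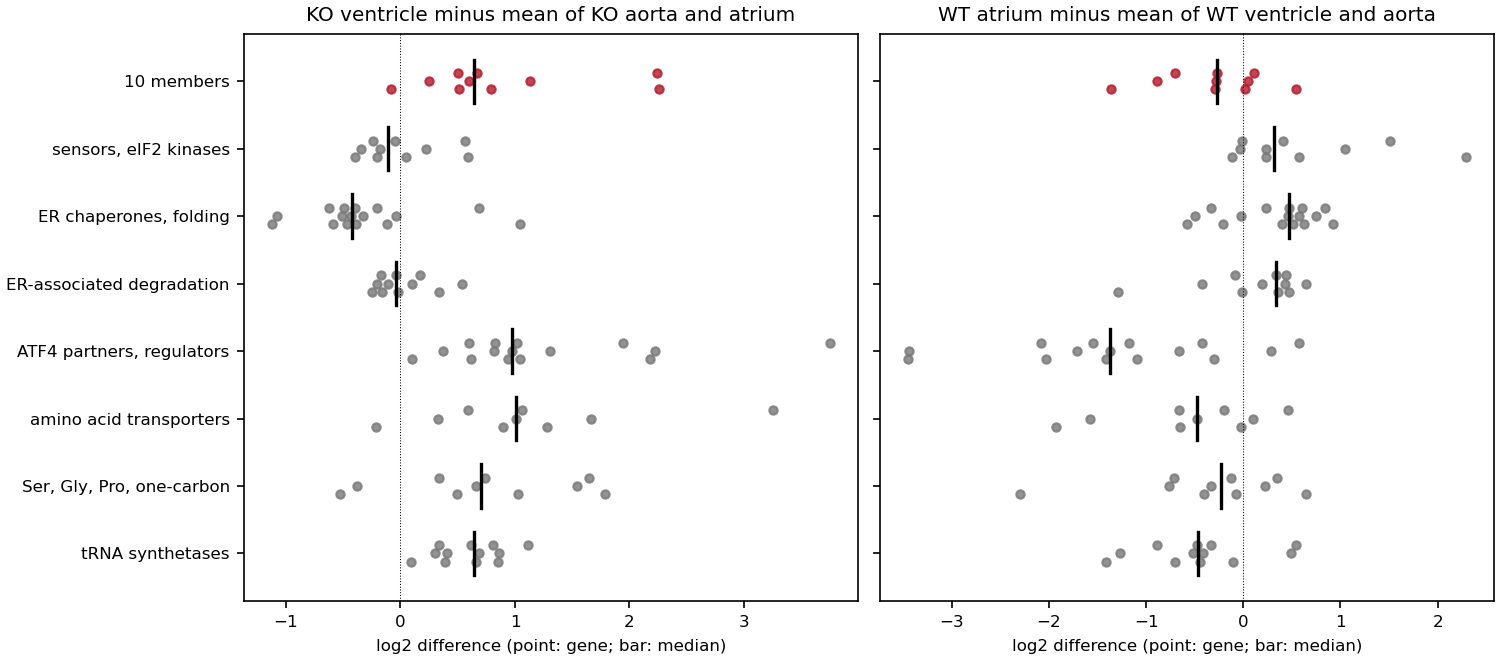
Log2 difference of KO ventricle from the mean of the other KO-labelled samples (left) and of WT atrium from the mean of the other WT-labelled samples (right); each point is a gene and each bar a list median. On the left the ATF4 lists lie right of 0 (medians 0.64 to 1.01) and the chaperones left of it (-0.42); on the right these lists take the opposite sides (-0.23 to -1.37, and 0.47).

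Among the WT-labelled samples the atrium differed in the opposite sense for some members, with counts over the members near those of all genes. Over the bright probes it lay at 6.43 and 6.375 times the spot noise from WT ventricle and aorta, themselves 2.55 apart. Against the mean of WT ventricle and aorta it was lower for Ddit3 (-1.36), Trib3 (-0.89) and Chac1 (-0.7). It was lower by less for Asns (-0.29), Atf4 (-0.28) and Herpud1 (-0.27), and higher for Hspa5 (0.54). It hardly differed for Xbp1 (0.05), Psat1 (0.11) and Phgdh (0.02). It lay below both other WT-labelled samples for 6 of 10 members, where 40% of all genes did, and above both for 4, where 44.2% did. Of the 15 ATF4 partners 13 were below both (median -1.37), and of the 12 tRNA synthetases 10 (median -0.47), while 11 of 16 chaperones were above both (median 0.47). Sensors and eIF2 kinases (7 of 10 above both, median 0.32) and degradation factors (7 of 11, median 0.34) lay above as well. Transporters (6 of 9 below both, median -0.48) and serine, glycine, proline and one-carbon enzymes (6 of 10, median -0.23) lay below. Blood markers, mostly Lyz2, summed to 1.15 in WT atrium and to 2.18 and 1.71 in WT ventricle and aorta, and fibroblast markers to 78.8 against 136 and 101. WT aorta was the highest WT-labelled sample for 6 members (25.2% of all genes), Atf4, Ddit3, Asns, Trib3, Chac1 and Herpud1. The range within the KO-labelled samples was wider than the difference between the group means for Ddit3 (2.6), Trib3 (2.28), Chac1 (1.24), Asns (0.94), Herpud1 (0.69), Psat1 (0.64) and Phgdh (0.3), and narrower for Atf4 (0.66), Xbp1 (0.62) and Hspa5 (0.1).

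Between KO-labelled and WT-labelled cells, the 85 genes of the 7 other pathway lists gave 83 tested genes, of which 13 were higher in KO-labelled cells and 3 lower by limma at an adjusted p under 0.05, with a median difference of 0.31 (0.08 without KO ventricle). The background over all genes tested was 13.7% higher and 16.1% lower. Leaving out 1 sample gave 7 to 21 higher and 1 to 4 lower, the counts being 7 and 1 without KO ventricle, 8 and 1 without KO atrium, 7 and 1 without WT aorta, and 21 and 4 without WT atrium. With the slide as a block 1 was higher and 1 lower.

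Of the 10 sensors and eIF2 kinases 3 were lower in KO-labelled cells and 0 higher (median -0.34), where 16.1% and 13.7% of all genes were. Without WT atrium 3 were higher and 3 lower (median -0.09), and 1 was lower without KO ventricle, KO atrium or WT aorta, under normexp background, and with the slide as a block. Eif2ak2, the double-stranded RNA kinase PKR, was at -0.73, -0.23 and -0.42 in KO ventricle, aorta and atrium and at 2.19, 2.04 and 2.57 in WT atrium, ventricle and aorta. Every WT-labelled sample was above every KO-labelled one, and the difference of -2.72 (SE 0.21, limma adjusted p = 0.000366) held with the slide as a block (-2.22, adjusted p = 0.0357). Atf6b, a relative of ATF6, was lower by -0.6 (adjusted p = 0.02), but not with the slide as a block (-0.28, adjusted p = 0.642) or without any 1 of KO ventricle, KO aorta, KO atrium or WT aorta. The Atf6b call also ended under normexp background (limma adjusted p = 0.0542), median scaling (0.0863), no filter on dim probes (0.0916) and the region as a block (0.0627). Also called lower, and named after its value was seen, was Eif2ak4, the gene of GCN2 (-0.6, limma adjusted p = 0.0208). Its call ended with the slide as a block (-0.4, 0.506) and without KO ventricle, KO atrium, WT ventricle or WT aorta.

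Of the 16 ER chaperones and folding enzymes 4 were higher and 0 lower (median 0.6), where 13.7% and 16.1% of all genes were. The count higher was 7 without WT atrium, 2 without WT aorta and 0 with the slide as a block. Sdf2l1, part of the BiP chaperone cycle, was at 1.42, 2.73 and 2.36 in KO ventricle, aorta and atrium and at 0.15, -0.61 and -0.32 in WT atrium, ventricle and aorta. The groups did not overlap (difference 2.43, SE 0.38, limma adjusted p = 0.00581), although the adjusted p was 0.145 with the slide as a block. The oxidase Ero1b was higher by 1.19 (adjusted p = 0.0238), and that call ended with the slide as a block (adjusted p = 0.272) and without any 1 sample other than WT atrium (0.0508 to 0.0795). Of 11 degradation factors tested 1 was higher and 0 lower (median 0.04): Derl1, a channel subunit for retrotranslocation, at 3.78 to 3.89 in KO-labelled and 3.02 to 3.07 in WT-labelled samples (difference 0.81, SE 0.12, adjusted p = 0.00456; 0.0562 with the slide as a block).

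Of the 15 ATF4 partners and stress regulators 4 were higher and 0 lower (median 0.38), where 13.7% and 16.1% of all genes were. Without KO ventricle 1 was higher and the median was 0.03, without KO aorta, KO atrium or WT aorta 2 were (medians 0.71, 0.68 and 0.58), without WT atrium 5 were (median 0.13), and with the slide as a block 1 was (median 0.79). The secreted stress cytokine Gdf15 was at 2.42, 1.67 and 1.5 in KO ventricle, aorta and atrium, while its WT-labelled values of -6.85, -4.65 and -4.87 were well above background on 1 of 3 arrays, so no fold is given (limma adjusted p = 0.000563; 0.0187 with the slide as a block). C2C12 had 0.28 and 0.97. Gdf15 was the only listed gene higher in KO-labelled cells that remained called with the slide as a block. Fgf21 was at -7.0, -3.18 and -3.92 in WT atrium, ventricle and aorta, well above background on 2 of 3 arrays, and its call (adjusted p = 0.0305) ended with the slide as a block (0.395) and without KO ventricle, KO atrium or WT aorta.

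Of the 9 amino acid transporters 1 was higher and 0 lower, where 13.7% and 16.1% of all genes were. Slc7a5, the LAT1 light chain that carries leucine and other large neutral amino acids, was at 5.49, 4.26 and 4.59 in KO ventricle, aorta and atrium and at 2.61, 2.43 and 2.58 in WT atrium, ventricle and aorta. The groups lay far apart (difference 2.24, SE 0.32, limma adjusted p = 0.00412; 0.0675 with the slide as a block), whereas its partner chain Slc3a2 differed by 0.2 (SE 0.32, adjusted p = 0.685). Of the 10 serine, glycine, proline and one-carbon enzymes tested 1 was higher, the mitochondrial Mthfd1l by 0.55 (adjusted p = 0.0438), a call that ended without any 1 of the 6 samples (up to 0.117) and with the slide as a block (0.194). Of 12 aminoacyl-tRNA synthetases 2 were higher, Yars by 1.15 (SE 0.19, adjusted p = 0.00728; 0.106 with the slide as a block) and Eprs by 1.15 (SE 0.3, adjusted p = 0.0333). The Eprs call ended with the slide as a block (0.263) and without KO ventricle, KO atrium, WT ventricle or WT aorta.

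**Figure D4:**
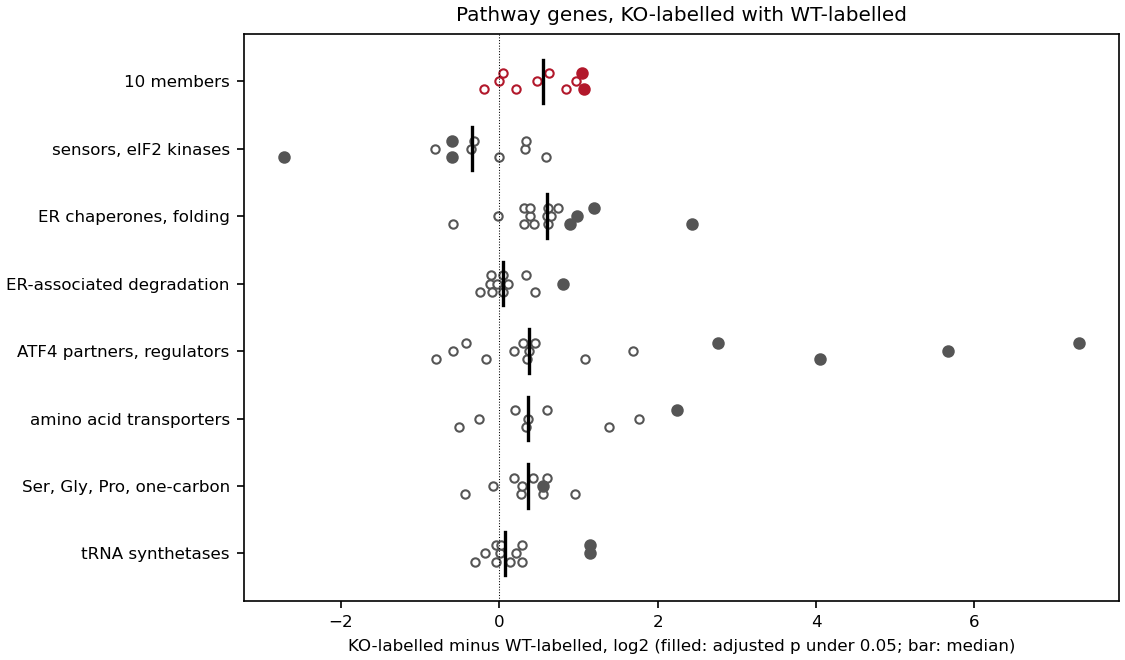
Difference between KO-labelled and WT-labelled samples on the log2 scale for each tested gene of the members and the 7 other pathway lists; filled points have an adjusted p under 0.05 and bars are list medians. Most points lie between -1 and 2 and are open; the positions of the 3 points beyond 4, Stc2 (named after its value was seen), Fgf21 and Gdf15, give no size, since these genes were not well above background on every WT-labelled array.

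Against C2C12, 4 of the 83 listed genes were higher and 9 lower in WT-labelled cells by limma, where 27% of all genes were called; with the slide as a block 2 were higher and 3 lower. Slc7a5 was lower in WT-labelled cells than in C2C12 by -1.57 (adjusted p = 0.0168), Sdf2l1 by -1.98 (0.0103) and Derl1 by -0.81 (0.00573), and Eif2ak2 was higher by 2.38 (0.000607). With the slide as a block the Sdf2l1 call ended (-1.98, limma adjusted p = 0.0636), and those of Slc7a5 (-1.84, 0.0485), Derl1 (-0.95, 0.0179) and Eif2ak2 (2.13, 0.0074) held. KO-labelled cells, set against the same C2C12 samples, differed by 0.67 for Slc7a5 (adjusted p = 0.517), 0.45 for Sdf2l1 (0.742) and -0.34 for Eif2ak2 (0.669).

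The genes whose level followed a member most closely over the 8 samples were found by the root mean square difference after centring each gene, among 15806 others. As a description with no test, those nearest to Asns were Psph at 0.127, Gars at 0.153 and Slc3a2 at 0.155 (median of all genes 0.54), which encode the last enzyme of serine synthesis, a tRNA synthetase and an amino acid transporter chain. Psat1 ranked 8 at 0.188. The other members lay 0.3 (Phgdh) to 0.657 (Ddit3) from Asns, with Atf4 at 0.451. Trib3, Xbp1 and Ddit3 lay beyond the median of all genes, at 0.573, 0.616 and 0.657. Nearest to Atf4 were the transcription factor gene Jdp2 at 0.131, the protease gene Ctsf at 0.146 and the chloride transporter gene Clcn3 at 0.158 (median 0.663), and Herpud1 ranked 27 at 0.202. The other members lay further from Atf4: Xbp1 at 0.289, Chac1 at 0.357, Hspa5 at 0.413 and Asns at 0.451. Psat1 was at 0.559, Trib3 at 0.609, Phgdh at 0.626 and Ddit3, beyond the median, at 0.758. Nearest to Hspa5 were Cd320 at 0.05, the unnamed transcript TC1651685 at 0.059 and Asf1a at 0.063 (median 0.477). Asns and Hspa5 thus followed different profiles, 0.502 apart: Asns was highest in KO ventricle and lowest in C2C12 of slides 1 and 3, and Hspa5 was low only in WT ventricle and aorta.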

How the data were processed

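RNA was extracted with a Qiagen kit, copied and labelled with Cy3, per the labels' protocols. Each array file holds the scanner's spot intensities as deposited, made with Agilent Feature Extraction 9.5.3.1 on the mm8 build, per the file headers; gProcessedSignal is background-subtracted there. The deposited series table holds log2 of the same signal: it agreed within 0.01 for 99.7 to 99.8% of probes, with column medians of 5.45 to 5.77 and no further centring.

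Here, control spots (1639 of 45018 per array) and 39 to 120 spots marked as uneven or outlying were left out, spots of a probe were averaged, and log2 signals were scaled by each array's 75th percentile (signal 962.4 to 1145; 49.0 to 62.0% of probes well above background). Of 41121 probes, 24348 were named by accession, 6293 by symbol and 2419 by synonym in RefSeq GRCm38.p6, and 8061 kept the file's name. Arrays differing by less than spot noise were averaged. Probes well above background on at least 3 fitted arrays entered, with the brightest probe per gene. Groups were compared with limma 3.58.1 (R 4.3.3; lmFit, eBayes) and Benjamini-Hochberg adjustment over all genes; KO with WT used the 6 heart samples, comparisons with C2C12 all 8. The number of arrays limits precision. The script was tested on simulated data. Python 3.11.15, numpy 2.4.6, pandas 2.3.3 and matplotlib 3.10.9 did the rest.

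The members, lists and comparisons were chosen with earlier results of these data known. Named genes are every member, from each other list the 2 called genes with the largest difference in each direction, and the 3 nearest genes of Atf4, Asns and Hspa5; others are said to be picked after their values were seen. The alternatives were normexp background (offset 50), median, quantile or no scaling, other probe filters, every array as its own sample, slide or region as a block, and leaving out each sample.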

Additional observations from a re-analysis of the deposited data

How the results depend on the processing

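Atf4 and Xbp1 kept their direction and their call between KO and WT under normexp background, median, quantile and no scaling, every probe filter and the region as a block; median scaling moved the median of all genes by 0.11. Genes called between KO and WT numbered 4461, and 2780 under normexp, 913 with the slide as a block and 2635 to 5871 leaving out 1 sample; members called were 2, and 4 with every array as its own sample, 0 with the slide as a block and 1 to 3 leaving out 1 sample. Between KO and C2C12 198 genes were called, and 45 under normexp (68.9% of them higher, against 53% of the 198), 99 with no filter on dim probes, 60 with probes above background on every array, 1628 with every array as its own sample, 27 with the slide as a block and 13 to 459 leaving out 1 sample; members called were 0, and 1 with every array as its own sample. Between WT and C2C12 4265 genes were called, and 2499 under normexp, 6665 with every array as its own sample, 2286 with the slide as a block and 2278 to 5622 leaving out 1 sample; members called were 2, 1 under each of normexp, median scaling, no filter and the slide block, and 0 to 3 leaving out 1 sample. Regions gave 0 genes, but 72, 65 and 50 with every array as its own sample and up to 122 without KO atrium (0 to 122 for atrium against aorta and against ventricle).

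Differences near 0 changed sign. Between KO and WT these were Ddit3 (0.04; -0.02 with no scaling, -0.0018 with the slide as a block, -0.71 to 0.59 leaving out 1 sample), Asns (-0.05 to 0.42 leaving out 1 sample), Psat1 (0.09 with median scaling, 0.64 with the slide block, -0.18 to 0.14) and Phgdh (0.03 with the slide block). Against C2C12, KO-labelled cells changed sign for Xbp1 (0.05 with the slide block, -0.41 to 0.05 leaving out 1 sample), Ddit3 (0.16 with every array as its own sample, -0.8 to 0.5), Hspa5 (0.02 with median scaling, 0.01 with the slide block, -0.09 to 0.01) and Herpud1 (-0.02 to 0.39). WT-labelled cells did so for Ddit3 (-0.39 to 0.36), Asns (-0.11 with the slide block, -0.11 to 0.69), Trib3 (0.12 with every array as its own sample, -0.67 to 0.52) and Chac1 (0.03 under normexp, 0.002 with no scaling, 0.08 with every array as its own sample, -0.52 to 0.37).

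Treating every array as its own sample also called Hspa5 (0.47, adjusted p = 0.026) and Herpud1 (0.67, adjusted p = 0.049) between KO and WT with limma. The value of KO ventricle over the other KO samples, recomputed after the data were seen under 4 scalings and on slide 3, changed sign among the members for Hspa5 alone, at 0.08 under normexp. Of the list medians, that of ER-associated degradation changed sign, from -0.04 to 0.07 under normexp. Of the 3 genes nearest to Atf4 and to Hspa5, 1 each was shared under normexp and under quantile normalization; for Asns 2 and 3 were. The causes were not tested. No paired analysis was possible by replicate number because the labels give none; the regions, each with 1 KO and 1 WT sample, were used as a block instead, which called 3644 genes and 2 members (Atf4 and Xbp1). With a lone C2C12 sample left, it is assumed to vary like the other groups.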
